A study of Mus musculus with 12 samples.

Results

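The genes described here are 6 matrix metalloproteinases (Mmp8, Mmp9, Mmp12, Mmp13, Mmp14 and Mmp19) and 3 tissue inhibitors of metalloproteinases (Timp1, Timp2 and Timp3). They are named members of the family, taken by symbol with no use of their measured values, and make up 9 of the 37620 gene identifiers in the count table. RNA was sequenced from primary C57BL/6 mouse macrophages, grown from bone marrow and at day 7 of culture. Of the 12 libraries, 3 came from normoxia with 25 mM NaCl, the salt control, and 3 from normoxia with 25 mM sodium lactate. Another 3 came from hypoxia (1% oxygen) with 25 mM NaCl and 3 from hypoxia with 25 mM lactate. Groups are named by oxygen and medium (normoxia-NaCl, hypoxia-lactate and so on), and a library by its group and the number it carries in the labels. Exposure time, age and sex: not given in the sources used here. Nothing states that libraries of 1 group are from different animals or dishes. The p-values therefore reflect the variation among these libraries alone, and that variation may be technical. All 9 genes passed the filter on low counts and were tested among 14616 genes.

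Matrix metalloproteinases are zinc proteases that are made as inactive precursors and cut collagen, elastin, other matrix proteins and many secreted proteins. TIMPs bind the active site of the mature enzymes and block it, so the balance of enzyme and inhibitor sets how much matrix a cell can break down. Macrophages are a main source of these enzymes in wounds, atherosclerotic plaques and tumours, and macrophage elastase, the product of Mmp12, takes its name from them.

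The libraries held 22705978 to 49885085 reads in genes. The macrophage markers were all detected, and the 10 together made up 39208 to 54175 CPM (reads of a gene per 1000000 gene reads, scaled between libraries with the TMM method of edgeR) in each library. Of 10 genes known to rise at low oxygen, a list known from earlier results of these data and so no separate check, all 10 had a positive difference in each medium. At an adjusted p under 0.05 edgeR called 8 as higher in hypoxia-NaCl than in normoxia-NaCl, and 9 as higher in hypoxia-lactate than in normoxia-lactate. These comparisons called 0.281% and 0.226% of all genes. Library hypoxia-lactate 3 stood apart: 11437 genes had at least 10 counts against 13198 to 14767 elsewhere, 0.486% of its gene reads were mitochondrial against 2.04% to 4.75%, and its gene ranks were the least like those of the rest (median Spearman coefficient 0.922, elsewhere 0.963 to 0.977). Library normoxia-NaCl 1 had the largest mitochondrial share, 4.75%, and 33.7% of its reads in 100 genes.

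The starts of 7 of the 9 genes have an entry in the RefSeq promoter table of build GRCm38.p6, and Mmp9 and Mmp19 have none there. The 250 bases before the start, on the plus strand, are shown for the gene with the clearest response to oxygen (Mmp13, chr9:7272264-7272513), for the most abundant member (Mmp12, the second of its listed starts, chr9:7347124-7347373), for the neighbouring collagenase Mmp8 (chr9:7558179-7558428) and for the inhibitor Timp1 (chrX:20869916-20870165). Capitals mark matches on either strand to TGANTCA, the site of AP-1 factors (Jun and Fos proteins), and to ACGTG or GCGTG, the core bound by hypoxia-inducible factor (HIF).
Mmp13: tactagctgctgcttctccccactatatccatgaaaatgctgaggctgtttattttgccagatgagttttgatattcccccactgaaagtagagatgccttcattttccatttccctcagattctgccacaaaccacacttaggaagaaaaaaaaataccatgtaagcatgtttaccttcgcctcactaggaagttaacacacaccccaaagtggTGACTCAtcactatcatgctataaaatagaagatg
Mmp12: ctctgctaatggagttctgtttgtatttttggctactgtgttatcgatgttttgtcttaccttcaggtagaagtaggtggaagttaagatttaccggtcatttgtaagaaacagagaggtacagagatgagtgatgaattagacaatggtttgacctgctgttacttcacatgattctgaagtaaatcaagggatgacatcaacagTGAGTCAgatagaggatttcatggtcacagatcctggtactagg
Mmp8: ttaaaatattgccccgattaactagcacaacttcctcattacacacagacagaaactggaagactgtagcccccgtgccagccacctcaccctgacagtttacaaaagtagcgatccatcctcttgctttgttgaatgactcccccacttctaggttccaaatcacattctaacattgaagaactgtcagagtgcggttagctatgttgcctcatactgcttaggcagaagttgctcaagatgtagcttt
Timp1: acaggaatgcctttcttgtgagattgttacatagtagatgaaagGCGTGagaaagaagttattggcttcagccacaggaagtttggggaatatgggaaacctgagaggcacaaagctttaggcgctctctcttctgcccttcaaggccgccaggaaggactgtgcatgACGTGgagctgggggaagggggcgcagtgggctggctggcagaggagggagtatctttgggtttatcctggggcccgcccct
Over windows of 300 bases, from 250 before to 50 after the start, 7.81% of 32851 RefSeq promoters held the AP-1 letters and 43.8% a HIF core. Mmp13 has TGACTCA 35 bases before its start and this Mmp12 start has TGAGTCA 44 bases before it, while neither window has a HIF core. The first listed start of Mmp12, not printed, has neither. Timp1 has HIF cores 206 and 82 bases before its start and no AP-1 letters. Mmp8 has neither. A match describes the letters and does not show binding.

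Among the family, Mmp12 was by far the most abundant per length of annotated exon, and Timp2 led the inhibitors. Per kilobase of annotated exons, Mmp12 averaged 356 ± 169 CPM (SD over the 12 libraries), Timp2 55.9 ± 17.2, Mmp8 54.4 ± 17.3, Mmp19 23.9 ± 6.75 and Mmp13 16.4 ± 19.6. Timp1 (5.14 ± 5.98), Mmp14 (2.08 ± 0.805), Timp3 (1.16 ± 0.315) and Mmp9 (0.444 per kilobase) came below. Timp2 and Mmp8, neighbours in this order, did not differ beyond their spread. For Mmp19 and Mmp13 the SD over 12 libraries also holds differences between groups. Within normoxia Mmp19 was above Mmp13 beyond their spread. The values were 17.7 ± 2.15 against 3.26 ± 1.36 in normoxia-NaCl and 27.4 ± 2.95 against 5.84 ± 3.30 in normoxia-lactate (SD, n = 3). At 1% oxygen they did not differ beyond it, with means of 20.8 and 20.4 in hypoxia-NaCl and 29.7 and 36.1 in hypoxia-lactate. The length taken for Mmp12 matters to its value: with the main transcript of 3607 bases in place of all 7237 annotated bases it averaged 714 CPM per kilobase, which leaves it first. Mmp12 took 0.109% to 0.444% of all gene reads of a library.

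**Figure D1:**
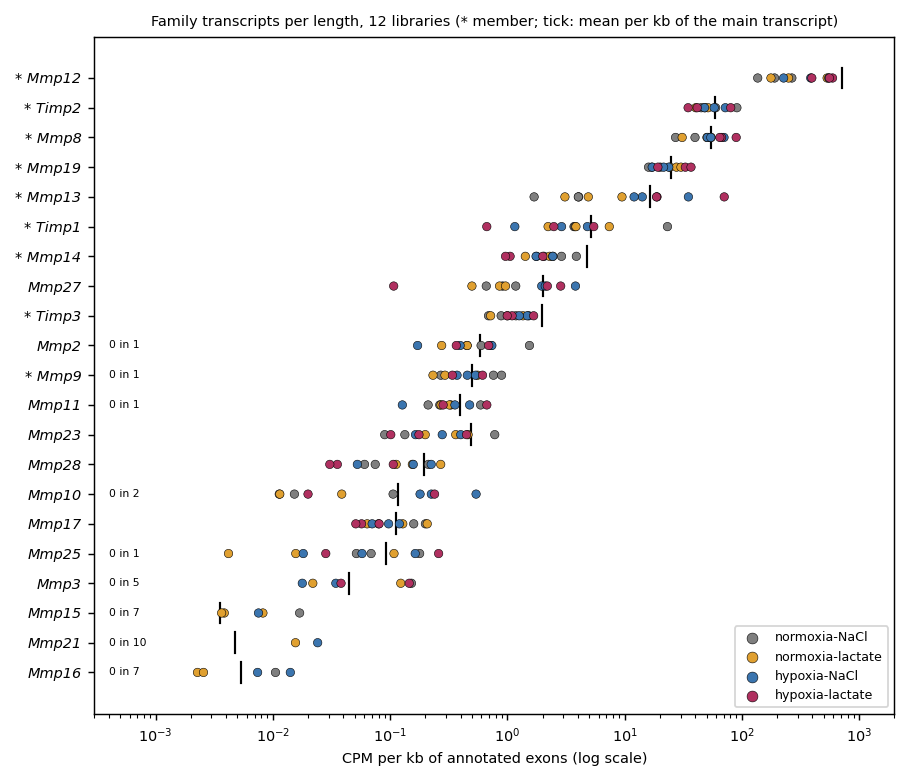
CPM per kilobase of annotated exons (log axis) for the family genes with any read, 1 point per library coloured by group. The tick is the mean over the 12 libraries per kilobase of the main transcript, an asterisk marks the 9 genes described here, and "0 in" gives the number of libraries with no read. Mmp12 lies above the other family genes in every library, and the points of Mmp13 spread from 1.69 to 70.8.

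Summed per kilobase, the 6 metalloproteinases exceeded the 3 inhibitors 2.20-fold, 4.27-fold and 4.99-fold in the normoxia-NaCl libraries and 5.47-fold, 5.86-fold and 11.5-fold in the normoxia-lactate libraries. The ratio was 7.42, 6.36 and 8.83 in hypoxia-NaCl, and 14.8, 13.9 and 8.71 in hypoxia-lactate. The normoxia-NaCl libraries were thus the 3 lowest, and the 2 highest were hypoxia-lactate 1 and 2. Group means were 3.82 ± 1.45, 7.60 ± 3.36, 7.54 ± 1.24 and 12.5 ± 3.30 (SD, n = 3). Mmp12 alone gave 51.6% to 78.5% of the sum over the 9 genes, and Timp2 78.8% to 98.0% of the inhibitor sum, so the ratio mostly reports these genes. Without Mmp12 it was 0.550 to 1.52 in normoxia-NaCl, 1.07 to 1.98 in normoxia-lactate, 1.42 to 2.03 in hypoxia-NaCl and 1.90 to 3.79 in hypoxia-lactate. With main-transcript lengths, chosen after the data were seen, it was 3.73 to 8.75, 9.24 to 20.2, 10.1 to 15.4 and 14.7 to 25.7 in the same order. No test was made of it, and a transcript ratio is not a ratio of active enzyme to inhibitor.

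Mmp13 encodes collagenase-3, which cuts fibrillar collagen and is best known from cartilage and bone. It showed 4.52, 10.8 and 10.8 CPM in normoxia-NaCl 1, 2 and 3, and 8.28, 13.1 and 25.4 CPM in normoxia-lactate. At 1% oxygen it showed 37.9, 32.2 and 93.6 CPM in hypoxia-NaCl and 50.5, 50.05 and 189 CPM in hypoxia-lactate. Every low-oxygen library lay above every normoxic one, a separation that 2.24% of the tested genes had in this direction. Library number 3 was the highest of its group in both low-oxygen groups and in normoxia-lactate, and hypoxia-lactate 3, the library that stood apart, was the highest of all.

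Averaged over NaCl and lactate, Mmp13 rose at 1% oxygen by 2.63 ± 0.45 (SE) on the log2 scale, a 6.20-fold difference, with an adjusted p of 0.0113 in edgeR's quasi-likelihood test. It was the only one of the 9 genes called in that comparison, in which 1.38% of all tested genes were called, 1.12% as higher. Without hypoxia-lactate 3 the difference was 2.15 ± 0.34 (adjusted p = 0.00283, edgeR), in a fit that called 7.59% of all genes. Mmp13 passed the threshold under each of the 21 alternatives run, with differences of 2.01 to 2.90 and adjusted p from 4.32e-07 to 0.048. This average was added after the data were seen. In bulk RNA, fewer cells of a type and less RNA per cell cannot be told apart, here and in all results below.

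In NaCl, hypoxia-NaCl against normoxia-NaCl gave 2.64 ± 0.64 for Mmp13, with the libraries apart (12.8% of tested genes were so separated upward) but an adjusted p of 0.22 in edgeR. Here same-numbered libraries deviated together, a match found in the data and not in the labels, and their ratios for Mmp13 were 8.37, 2.97 and 8.69. With the number as a block over all 4 groups, Mmp13 rose by 2.54 ± 0.35 (adjusted p = 0.016, edgeR), beside 0.281% of all genes called. That fit includes the lactate groups and is not a paired test of the 2 NaCl groups alone. Without hypoxia-lactate 3 and with no block Mmp13 rose by 2.63 ± 0.48 (0.0159, edgeR), where 1.79% of genes were called. In lactate the difference was 2.63 ± 0.63 with an adjusted p of 0.152, and 1.68 ± 0.49 (0.15) without hypoxia-lactate 3. These comparisons of 2 groups called 0.281% and 0.226% of all genes and 0 of the 9, with 2 of the 9 at an unadjusted p under 0.05 in each (Mmp13 and Mmp12 in NaCl, Mmp13 and Mmp8 in lactate), a limit that 6.49% and 14.6% of all genes met. DESeq2 called Mmp13 in both (adjusted p = 0.0058 and 0.00205), beside 1.05% and 2.99% of all genes, and limma-voom called none of the 9. The difference between the 2 oxygen effects was -0.01 ± 0.83 (edgeR adjusted p = 0.999), and -0.94 ± 0.68 (0.998) without hypoxia-lactate 3.

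Lactate gave no call for Mmp13. Its log2 difference was 0.83 ± 0.61 in normoxia (edgeR adjusted p = 1) and 0.82 ± 0.60 in hypoxia (0.585), the latter -0.11 ± 0.50 without hypoxia-lactate 3. With low oxygen and lactate together against normoxia-NaCl, Mmp13 rose by 3.46 ± 0.66, 11.01-fold (edgeR adjusted p = 0.0214), and by 2.51 ± 0.50 (0.0121) without hypoxia-lactate 3. With 12 libraries it was the only one of the 9 called, beside 1.61% of all genes (1.17% as higher). Without hypoxia-lactate 3, Mmp13 and Mmp19 were called, beside 6.86% of genes. This comparison shares its control libraries with that of hypoxia in NaCl. The call was lost without normoxia-NaCl 1 (adjusted p = 0.122), normoxia-NaCl 2 (0.0791) or normoxia-NaCl 3 (0.0847).

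**Figure D2:**
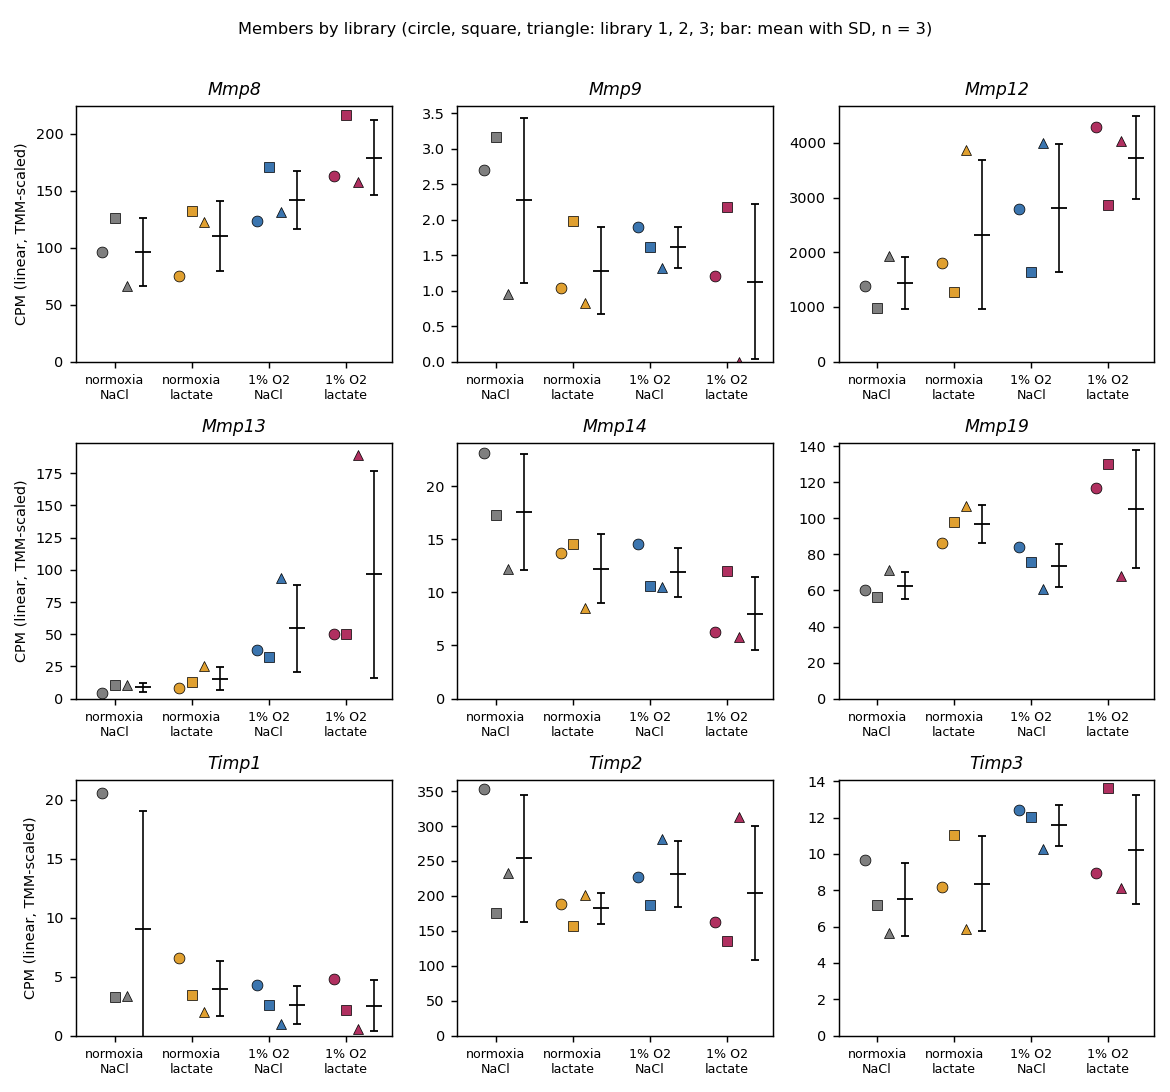
CPM (linear axis from 0) of the 9 genes by group, with 1 point per library (circle, square and triangle for libraries 1, 2 and 3) and the group mean with its SD beside them (n = 3). The points of Mmp13 at 1% O2 start at 32.2 CPM, above the highest normoxic point at 25.4, whereas Mmp9, Timp2 and Timp1 overlap between all groups.

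Collagenase-3 is also made by bone cells and fibroblasts, so their markers were read beside it. Of 9 osteoclast markers, Calcr (calcitonin receptor) had no read in any library and Oscar at most 0.188 CPM. Ctsk (cathepsin K) ran from 57.7 to 88.6 CPM in normoxia-NaCl, 84.2 to 134 in normoxia-lactate, 122 to 157 in hypoxia-NaCl and 237 to 550 in hypoxia-lactate, and rose by 1.38 ± 0.22 on the log2 scale over both media (edgeR adjusted p = 0.00735). It was the only 1 of 7 tested osteoclast markers called there, beside 1.38% of all genes. Of the 7, 4 were above 0, with a median of 0.20. Atp6v0d2, on the same list, ran from 61.9 to 278 CPM in normoxia and 47.5 to 253 at 1% oxygen. Dcstamp (6.82 to 74.7 CPM) and Acp5 (23.2 to 70.7) were highest in hypoxia-lactate 3, as Mmp13 was. Itgb3 (4.09 to 28.3) and Ocstamp (0.237 to 2.37) were lowest in that library. The 9 summed to 299 to 550 CPM in normoxia-NaCl, 346 to 579 in normoxia-lactate, 356 to 574 in hypoxia-NaCl and 458 to 873 in hypoxia-lactate. Of 10 fibroblast markers, Lum was at 0 in 11 libraries and Dcn at most 0.525 CPM, while Col1a1 was at 10.97 to 62.1 CPM. The fibroblast markers summed to 43.1 to 107 CPM in normoxia-NaCl, 42.1 to 91.9 in normoxia-lactate, 32.2 to 119 in hypoxia-NaCl and 55.0 to 111 in hypoxia-lactate. Their part in the Mmp13 result was not tested.

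Mmp13 lies at 1 end of a cluster of 10 metalloproteinase genes on chromosome 9. In the RefSeq order of GRCm38 these are Mmp13, Mmp12, Mmp1b, Mmp3, Mmp1a, Mmp10, Mmp8, Mmp27, Mmp20 and Mmp7. Mmp1b, Mmp1a, Mmp20 and Mmp7 had no read, and Mmp3 and Mmp10 averaged 0.0801 and 0.199 CPM, so expression fell on Mmp12, Mmp8, Mmp13 and, at 3.34 CPM, Mmp27. Mmp27, a little-studied member placed by sequence with the stromelysins, was chosen for mention after its values were seen. It showed 1.46, 2.61 and 2.01 CPM in normoxia-NaCl, 1.10, 1.90 and 2.13 in normoxia-lactate, 4.34, 4.66 and 8.43 in hypoxia-NaCl, and 4.85, 6.30 and 0.237 in hypoxia-lactate. All low-oxygen libraries but hypoxia-lactate 3 were above all normoxic ones. Over both media its difference was 1.34 ± 0.54 with all libraries (edgeR adjusted p = 0.268). Without hypoxia-lactate 3 it rose by 1.60 ± 0.27 (0.00374), where 7.59% of genes were called and 3.54% of tested genes were separated in this way upward. Pearson's r of log2 CPM between Mmp13 and Mmp27 was 0.922 over those 11 libraries and 0.0608 over all 12, a description of libraries that share the oxygen difference.

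**Figure D3:**
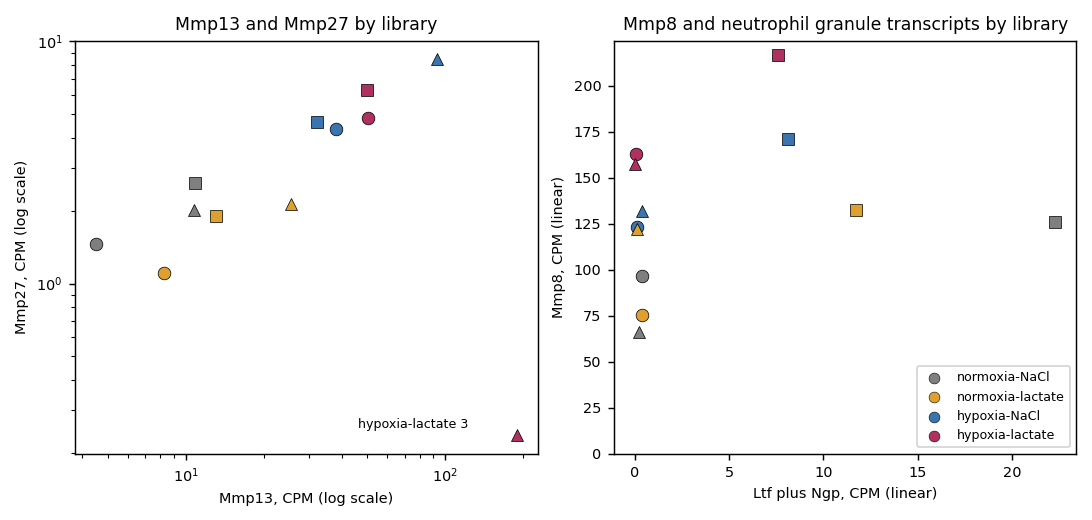
Left, Mmp27 against Mmp13 in CPM (both axes log), and right, Mmp8 against the sum of the neutrophil granule transcripts Ltf and Ngp in CPM (both axes linear), 1 point per library, coloured by group with shapes for the library number as in the plot of CPM by group. Hypoxia-lactate 3 has the most Mmp13, 189 CPM, and the least Mmp27, 0.237 CPM. Mmp8 is at 66.0 to 163 CPM in the 8 libraries where Ltf and Ngp are both under 0.5 CPM, and at 126 to 217 CPM in the other 4.

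Mmp8 encodes neutrophil collagenase, which neutrophils store in granules and other myeloid cells also make. It showed 96.7, 126 and 66.0 CPM in normoxia-NaCl, 75.1, 133 and 122 in normoxia-lactate, 123, 171 and 132 in hypoxia-NaCl, and 163, 217 and 157 in hypoxia-lactate. The hypoxia-lactate libraries lay above all normoxic libraries of either medium, while hypoxia-NaCl and normoxia-NaCl overlapped. Between the lactate groups 8.23% of tested genes were separated upward. Low oxygen over both media gave 0.63 ± 0.19 on the log2 scale (edgeR adjusted p = 0.152). Without hypoxia-lactate 3 it gave 0.67 ± 0.19 (0.0475), where 7.59% of all genes were called. Without normoxia-NaCl 1 as well the difference was 0.67 ± 0.20 (0.0585). Low oxygen and lactate together gave 0.90 ± 0.27 (0.109). Lactate gave 0.19 ± 0.27 in normoxia and 0.34 ± 0.27 in hypoxia, neither called.

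Library number 2 had the most Mmp8 in all 4 groups, and likewise the most S100a9, Ltf and Ngp, transcripts of neutrophils and their precursors. Other markers on the list did not follow this order: S100a8 was highest in hypoxia-lactate 3 (34.95 CPM, against 6.42 in hypoxia-lactate 2), and Cxcr2 was lowest in library number 2 in normoxia-NaCl. Over 12 neutrophil markers, the summed level ran from 4.22 to 56.6 CPM in normoxia-NaCl, 3.80 to 36.9 in normoxia-lactate, 5.12 to 34.7 in hypoxia-NaCl and 6.12 to 36.4 in hypoxia-lactate, whose highest sum was that of hypoxia-lactate 3. Their part in the Mmp8 result was not tested. Between 0 and 9 of the 12 were at 0 in a library, and Ly6g never passed 0.0593 CPM. In the 8 libraries where Ltf and Ngp were both under 0.5 CPM, Mmp8 stood at 66.0 to 163 CPM. In the other 4 it stood at 126 to 217 CPM. The 8 include hypoxia-lactate 3, where S100a8 was highest.

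Mmp12, macrophage elastase, degrades elastin and other matrix proteins. It showed 1377, 988 and 1932 CPM in normoxia-NaCl and 1811, 1282 and 3863 CPM in normoxia-lactate. At 1% oxygen it showed 2799, 1644 and 3990 CPM in hypoxia-NaCl and 4297, 2860 and 4040 CPM in hypoxia-lactate. Library number 2 was the lowest of its group in all 4, and only hypoxia-lactate and normoxia-NaCl did not overlap, as for 9.39% of tested genes in this direction. That comparison gave 1.38 ± 0.43 (edgeR adjusted p = 0.113), low oxygen in NaCl 0.97 ± 0.42 (0.721) and low oxygen over both media 0.83 ± 0.30 (0.213). Same-numbered hypoxia-NaCl and normoxia-NaCl libraries differed 2.03-fold, 1.66-fold and 2.07-fold. All 3 pairs were higher for 22.5% of the tested genes. When hypoxia-lactate 3 was dropped and a replicate block fitted, Mmp12 rose by 0.93 ± 0.17 for low oxygen in NaCl (adjusted p = 0.00827, edgeR). That fit called 5.08% of genes in this comparison. Its block is shared with the lactate groups, so it does not test the NaCl pairs by themselves. Lactate gave 0.69 ± 0.42 in normoxia and 0.41 ± 0.42 in hypoxia, and neither was called. Exons of Mmp12 overlap those of Mmp1b on the other strand, but Mmp1b had no read.

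Mmp9, gelatinase B, cuts denatured collagen and collagen IV of basement membranes. It was the least abundant of the 9 per length, at 2.70, 3.16 and 0.958 CPM in normoxia-NaCl, 1.04, 1.98 and 0.822 in normoxia-lactate, 1.90, 1.61 and 1.32 in hypoxia-NaCl, and 1.204, 2.18 and 0 in hypoxia-lactate. The 0 of hypoxia-lactate 3 allows up to 0.178 CPM (3 counts, for counting error only). All groups overlapped, and library number 3 was the lowest in each. Its differences ran from -0.98 ± 0.91 (low oxygen and lactate together) to -0.16 ± 0.90 (low oxygen in lactate), with edgeR adjusted p of 0.577 to 1 in the 5 comparisons of 2 groups. No comparison called Mmp9.

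Mmp14 encodes a membrane-anchored metalloproteinase (MT1-MMP), which cuts collagen at the cell surface and activates pro-MMP2 together with TIMP2. It showed 23.1, 17.3 and 12.2 CPM in normoxia-NaCl, 13.7, 14.5 and 8.49 in normoxia-lactate, 14.6, 10.6 and 10.5 in hypoxia-NaCl, and 6.30, 11.97 and 5.76 in hypoxia-lactate. All hypoxia-lactate libraries were below all normoxia-NaCl ones, a separation that 11.2% of tested genes had in this direction, and the other groups overlapped. The difference between those 2 groups was -1.13 ± 0.37 (edgeR adjusted p = 0.125), -0.94 ± 0.34 (0.106) without hypoxia-lactate 3 and -0.70 ± 0.34 (0.23) without normoxia-NaCl 1 as well. Low oxygen over both media gave -0.59 ± 0.26 (0.305), in NaCl -0.56 ± 0.36 and in lactate -0.61 ± 0.37. Lactate gave -0.52 ± 0.36 in normoxia and -0.57 ± 0.37 in hypoxia.

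Mmp19, which cuts basement membrane proteins, had its higher group means in lactate at both oxygen levels. It showed 60.3, 56.6 and 71.2 CPM in normoxia-NaCl and 86.1, 97.8 and 107 CPM in normoxia-lactate. It showed 84.1, 76.0 and 60.8 CPM in hypoxia-NaCl and 117, 130 and 67.9 CPM in hypoxia-lactate. In normoxia the lactate libraries were all above the NaCl libraries (5.6% of tested genes upward), and in hypoxia only hypoxia-lactate 3 fell among the NaCl libraries. Lactate gave 0.63 ± 0.24 in normoxia (edgeR adjusted p = 1, unadjusted p = 0.02) and 0.51 ± 0.24 in hypoxia (0.436). Over both oxygen levels it gave 0.57 ± 0.17 (0.56), in a comparison that called 0.0342% of genes and none of the 9, and without hypoxia-lactate 3 Mmp19 rose by 0.69 ± 0.11 (0.0282), where 0.305% of genes were called. The remaining 5 lactate libraries were then above all 6 NaCl libraries, as for 0.417% of tested genes. Low oxygen and lactate together gave 0.74 ± 0.24 (0.119), and 0.98 ± 0.17 (0.0055) without hypoxia-lactate 3, where 6.86% of genes were called. Low oxygen over both media gave 0.17 ± 0.17 (0.675). Exons of Mmp19 overlap those of Tmem198b on the other strand, and whether the counting used strand is not given in the sources used here.

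For the lactate comparisons, edgeR called 0 of 14616 genes in normoxia and 0 in hypoxia (0%), hence none of the 9. At an unadjusted p under 0.05 there were 227 and 1664 genes. Of the 9, Mmp19 in normoxia was the only one under that limit. DESeq2 called 10 and 112 genes and limma-voom 0 in each, with none of the 9 among them. The test of a difference between the oxygen effects in the 2 media likewise called 0 genes (497 at an unadjusted p under 0.05, 1 in DESeq2, 0 in limma-voom), and the edgeR adjusted p of the 9 ran from 0.902 to 0.999.

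**Figure D4:**
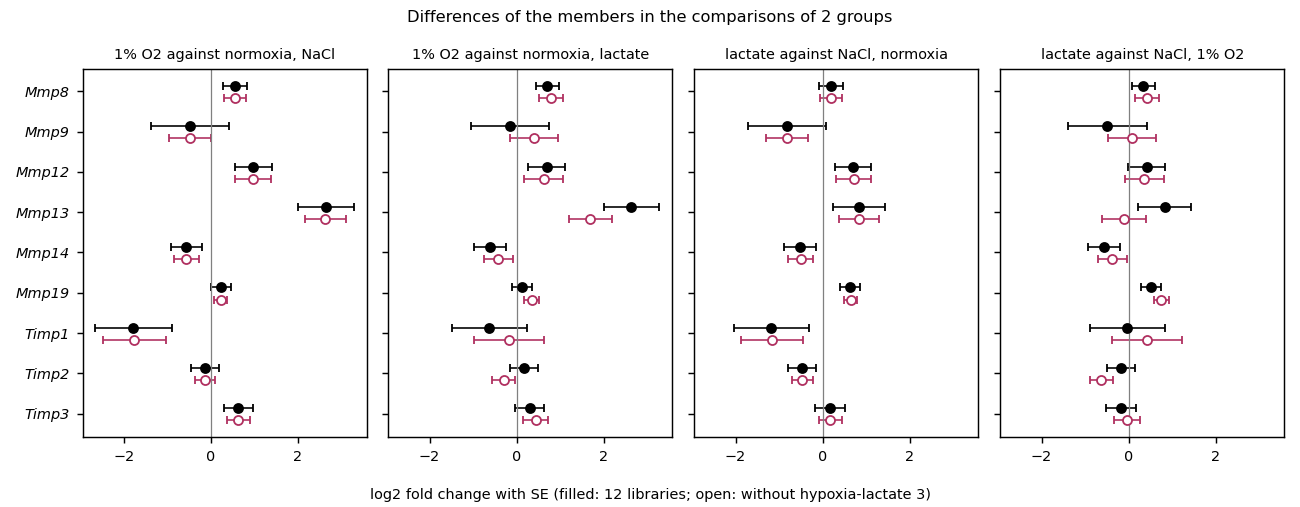
Log2 fold changes with their SE from edgeR (horizontal axis) for the 9 genes in 4 comparisons of 2 groups, filled with all 12 libraries and open without hypoxia-lactate 3. Mmp13 lies at 2.64 and 2.63 for 1% O2 in the 2 media, and moves from 0.82 to -0.11 for lactate at 1% O2 when hypoxia-lactate 3 is left out.

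Timp1 encodes an inducible secreted inhibitor that binds pro-MMP9. It showed 20.6, 3.29 and 3.36 CPM in normoxia-NaCl, 6.58, 3.42 and 1.98 in normoxia-lactate, 4.28, 2.58 and 1.03 in hypoxia-NaCl, and 4.85, 2.21 and 0.593 in hypoxia-lactate. Normoxia-NaCl 1 was 3.13-fold above the next library, all groups overlapped, and library number 1 was the highest of each group. Low oxygen and lactate together gave -1.81 ± 0.88 (edgeR adjusted p = 0.262), and 0.08 ± 0.63 (0.956) without normoxia-NaCl 1 and hypoxia-lactate 3. Low oxygen in NaCl gave -1.78 ± 0.87 (0.793), and -0.33 ± 0.57 (0.839) without both. When only hypoxia-lactate 3 was dropped and a replicate block fitted, Timp1 fell by 1.52 ± 0.34 for low oxygen in NaCl (adjusted p = 0.0233, edgeR). That fit still included normoxia-NaCl 1, and its block is shared with the lactate groups, so it is no paired NaCl test. Mmp2, gelatinase A, was also highest in normoxia-NaCl 1, at 5.21 CPM against 0 to 2.49 elsewhere, and its log2 CPM had a Pearson's r with Timp1 of 0.834 over 12 libraries. The Timp1 window printed above holds the HIF cores named there, and the windows of Mmp14, Timp2 and Timp3, not printed, hold 1 each. Of all promoters 43.8% held a HIF core.

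Timp2, which most cells make constantly, showed 354, 176 and 233 CPM in normoxia-NaCl, 189, 158 and 201 in normoxia-lactate, 226, 187 and 282 in hypoxia-NaCl, and 162, 136 and 313 in hypoxia-lactate. All groups overlapped, and library number 2 was the lowest of each. Its differences were -0.13 ± 0.32 for low oxygen in NaCl, 0.16 ± 0.32 for low oxygen in lactate, -0.48 ± 0.32 for lactate in normoxia and -0.19 ± 0.32 for lactate in hypoxia, with edgeR adjusted p of 0.827 to 1. Without normoxia-NaCl 1 and hypoxia-lactate 3, lactate in normoxia gave -0.16 ± 0.19. Without hypoxia-lactate 3, where it was high, the hypoxia-lactate libraries were below all hypoxia-NaCl libraries, at -0.63 ± 0.27 (0.479), as for 16.3% of tested genes.

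Timp3, an inhibitor that stays bound to the matrix and also blocks ADAM proteases, showed 9.64, 7.22 and 5.63 CPM in normoxia-NaCl, 8.18, 11.1 and 5.87 in normoxia-lactate, 12.4, 12.05 and 10.3 in hypoxia-NaCl, and 8.94, 13.7 and 8.13 in hypoxia-lactate. The hypoxia-NaCl libraries were above the normoxia-NaCl libraries without overlap, as for 12.8% of tested genes, at 0.63 ± 0.34 (edgeR adjusted p = 0.842), and library number 3 was the lowest in every group. In lactate the difference was 0.29 ± 0.34 (0.706) and the libraries overlapped. Exons of Timp3 overlap those of Syn3 on the other strand.

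Of 18 other family genes, 8 were tested and none was called with 12 libraries in any of the 8 comparisons. Mmp1a, Mmp1b, Mmp7, Mmp20, Mmp24 and Timp4 had no read, and besides Mmp27 and Mmp2 the highest mean was 0.904 CPM, of Mmp11. Low oxygen over both media gave Mmp2 -0.70 ± 0.68 (edgeR adjusted p = 0.68). In that comparison the median difference was 0.17 over the 9 genes, with 6 of 9 above 0, -0.18 over the 8 others, and -0.01 over all tested genes. Without hypoxia-lactate 3 these medians were 0.29, 0.052 and -0.015.

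Genes that activate or clear the enzymes were read from a list of 20, of which 15 were tested. For low oxygen and lactate together 0 rose and 1 fell, beside 1.61% of all genes called, with a median of 0.14 against -0.01 over all genes. Without hypoxia-lactate 3, 2 rose and 1 fell, beside 6.86%. The gene that fell was Plau, urokinase, which makes plasmin and so starts the activation of several metalloproteinases. It showed 6.08, 34.9 and 17.2 CPM in normoxia-NaCl, 4.95, 12.2 and 4.67 in normoxia-lactate, 4.08, 4.97 and 9.90 in hypoxia-NaCl, and 0.413, 2.18 and 0.356 in hypoxia-lactate. All hypoxia-lactate libraries were below all others. Against normoxia-NaCl alone 11.2% of tested genes were separated downward. Plau fell by 4.28 ± 0.84 on the log2 scale (edgeR adjusted p = 0.0256), a call lost without normoxia-NaCl 2 (0.0885), normoxia-NaCl 3 (0.0677) or hypoxia-lactate 1 (0.0552). Furin, the protease that cuts the MT1-MMP precursor, gave 0.34 ± 0.25 in the same comparison, and Bsg (CD147), an inducer of metalloproteinases, 0.21 ± 0.24. Lrp1, the receptor that takes up several metalloproteinases and TIMPs, gave 0.62 ± 0.26, with edgeR adjusted p of 0.207 to 0.667 for these 3. Without hypoxia-lactate 3 and normoxia-NaCl 1, Bsg rose by 0.64 ± 0.15 (adjusted p = 0.0304, edgeR), while Furin and Lrp1 were not called. The number of genes called in that fit is given below. Reck, a membrane-bound inhibitor, averaged 0.386 CPM and gave -0.16 ± 0.87 (0.939).

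Of 16 ADAM and ADAMTS proteases, some of them targets of TIMPs, 11 were tested and 0 were called with 12 libraries in any comparison. For low oxygen over both media 5 of them had an unadjusted p under 0.05, 4 higher and 1 lower, a limit that 15.2% of all genes met. The median was 0.19, and 0.086 without hypoxia-lactate 3. Without hypoxia-lactate 3, 1 of the 11 rose and 1 fell, beside 7.59% of all genes called. Adam17, the sheddase of TNF and a target of Timp3, gave 0.77 ± 0.22 with 12 libraries (edgeR adjusted p = 0.12) and rose by 0.48 (0.023) without hypoxia-lactate 3. Adam15 gave -0.48 ± 0.17 (0.199), and -0.59 (0.03) without that library. Both were chosen after their values were seen.

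Of 20 transcription factors that act on metalloproteinase promoters, 19 were tested. For low oxygen and lactate together 2 rose and 0 fell, beside 1.61% of all genes called, with a median of 0.39 against -0.01 over all genes. Without hypoxia-lactate 3, 4 rose and 0 fell, beside 6.86%. Fosl2 (Fra-2), a partner of Jun in AP-1, showed 59.0, 85.4 and 80.1 CPM in normoxia-NaCl, 98.5, 123 and 91.8 in normoxia-lactate, 121, 120 and 133 in hypoxia-NaCl, and 145, 163 and 190 in hypoxia-lactate. The hypoxia-lactate libraries were the 3 highest of all, and the normoxia-NaCl libraries the 3 lowest. Between those 2 groups alone 9.39% of tested genes were separated upward. Fosl2 rose by 1.15 ± 0.19 (edgeR adjusted p = 0.0122), a call lost without normoxia-NaCl 1 (0.0507) or normoxia-NaCl 3 (0.0519). Over both media it rose at low oxygen by 0.70 ± 0.14 (0.0258, edgeR), and that call was lost without normoxia-NaCl 1 or 3, normoxia-lactate 1 or 3, or any hypoxia-NaCl library (0.0525 to 0.113). Ets2, an ETS factor, rose from 20.9 ± 3.94 to 66.8 ± 10.4 CPM (SD, n = 3) with low oxygen and lactate together, by 1.68 ± 0.38 (edgeR adjusted p = 0.0477). Leaving out any library other than hypoxia-NaCl 3 or hypoxia-lactate 3 ended that call (0.0512 to 0.144). Jun and Hif1a were chosen after their values were seen. Jun gave 1.34 ± 0.34 (edgeR adjusted p = 0.0715) there and rose by 0.73 (0.0463) without hypoxia-lactate 3. Hif1a gave 0.44 ± 0.22 (0.285) and rose by 0.65 (0.0252) without it.

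Genes whose log2 CPM followed each member closely over the libraries were taken from 9208 genes with a mean of at least 5 CPM. These are descriptions, and all libraries share the differences of oxygen, medium and depth. Mmp13 ran closely with Asph (r = 0.979) and Osbpl8 (0.970) over 12 libraries, and with Son (0.992), Flrt2 (0.986) and Klf6 (0.985) over the 11 without hypoxia-lactate 3. Mmp8 ran with Csnk1a1 in both sets (0.943 and 0.949) and with Tiparp over the 11 (0.959). Mmp12 ran with Slc39a10 (0.939) over 12 and Alcam (0.963) over 11, Mmp14 with Nrde2 (0.931 and 0.905), and Mmp19 with Serinc2 (0.902) over 12 and Nucb2 (0.936) over 11. Timp2 ran with Tmem37 (0.946 and 0.933) and Timp3 with Rbpms (0.919 and 0.927). Among the 9 genes, Mmp13 and Mmp12 had an r of 0.789 over 12 and 0.769 over 11 libraries, Mmp14 and Mmp12 -0.794 and -0.770, and Timp1 and Mmp13 -0.830 and -0.746.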

How the data were processed

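RNA of 12 libraries in 4 groups of 3 was measured. Poly(A) RNA was prepared with an Ion kit and read on a Proton sequencer, per the labels' protocols. The values are whole-number read counts for each Ensembl gene, as deposited. BWA, HTSeq and mm9 are the tools and build listed, with no role or version, per the submitters' processing notes. Gene annotation and use of strand: not given in the sources used here. The table has 37620 identifiers, of which 32897 matched a symbol in the gene name table used, and 5 counters that name no gene. Reads outside genes made up 13.7% to 22.0%, reads without a unique alignment 8.34% to 18.4%, unaligned reads 2.02% to 5.48%, ambiguous reads 0.361% to 0.442% and reads of low quality 0%. The counters entered neither library sizes nor tests.

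Counts were tested with edgeR 4.0.16 in R 4.3.3 (quasi-likelihood F test, TMM scaling, filterByExpr) in 1 fit over the 12 libraries with a mean per group, Benjamini-Hochberg adjustment over 14616 genes and a threshold of 0.05. Each SE is the size of the log2 fold change divided by the root of its F value. The 6 planned comparisons were oxygen in each medium, lactate at each oxygen level, both together and the interaction, and 2 averages were added. Alternatives were RLE and upper-quartile factors, no filter, a mean of at least 5 CPM, DESeq2 1.42.0, limma-voom (limma 3.58.1), the library number as a block, only the groups compared, and leaving out libraries. The edgeR script was checked on simulated counts. Same-numbered libraries deviated together for hypoxia in NaCl (r from 0.131 to 0.292, all above the limit of 0.1), and were treated as pairs there. This match was found in the data, not in the labels. Elsewhere the lowest r of a comparison was -0.0636 to 0.0938, under the limit. The block is a term shared by all 4 groups, so its fit is not a paired test of the 2 NaCl groups alone.

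The genes and lists were chosen with earlier results of these data known. The rule for named genes takes the 9 members, list genes past the threshold in any comparison (at most 6 per list), Reck, Bsg, Furin, Lrp1 and Mmp2, and the 3 genes most correlated with each member of at least 5 CPM (prior count 0.5), of which some are not reported here. Lengths come from a GENCODE annotation of GRCm38, which is not the build of the counts, and promoter sequences and gene order from RefSeq. A count of 3 was taken as the limit that 0 reads allow, and it covers counting error only.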

Additional observations from a re-analysis of the deposited data

How the results depend on the processing

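Hypoxia-lactate 3, the shallowest library, held 0 counts of Mmp9, 4 of Mmp27 and 10 of Timp1. Of 1444 repeats of 67 differences of named genes, 1323 kept direction and call, 55 gained a call, 30 lost one and 36 changed sign. Most of the 67 were not called with 12 libraries, so keeping the call mostly meant staying uncalled. Only the called ones could lose a call. For both together Mmp13 stayed called in 18 of 22 alternatives, Fosl2 in 19, Plau in 18 and Ets2 in 10. For oxygen over both media Mmp13 stayed called in all 21 and Fosl2 in 14. The causes of these changes were not tested, and a fit with fewer libraries has fewer degrees of freedom.

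With 12 libraries the number of genes called was 41 for oxygen in NaCl and 33 for oxygen in lactate, 0 for lactate at normal oxygen and 0 for lactate at low oxygen, 235 with both together, 0 for the interaction, 201 for oxygen over both media and 5 for lactate over both oxygen levels. In the same order DESeq2 called 153, 437, 10, 112, 1450, 1, 859 and 103. Without hypoxia-lactate 3 and normoxia-NaCl 1 the counts were 188, 380, 3, 11, 912, 0, 1362 and 55, and with the replicate block and without hypoxia-lactate 3 they were 767, 261, 43, 16, 2116, 0, 2211 and 256. Leaving out 1 library gave 7 to 270, 3 to 130, 0 to 5, 0 to 6, 67 to 1035, 0 to 0, 81 to 1145 and 0 to 46, each highest value being that without hypoxia-lactate 3. No filter gave 1 for lactate in normoxia, the replicate block 0 for lactate over both oxygen levels, and only the groups compared 3 for oxygen in lactate and 6 for both together. Upper-quartile factors moved the median of all genes to -0.164 and -0.148 for oxygen in lactate and lactate in hypoxia, to -0.13 and -0.163 for both together and the interaction, and split the calls for both together 118 higher and 79 lower, against 171 and 64.

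The edgeR fit with the replicate block, a term shared by all 4 groups, called Mmp13 for oxygen in NaCl (2.54, adjusted p = 0.016) and changed no other call of the 9 genes there. Where the numbers missed the limit for pairing, the block called Mmp13 for oxygen in lactate (0.0217) and Mmp12 for both together (0.0167) and oxygen over both media (0.0314). Without hypoxia-lactate 3 as well, it called Mmp8 (0.013), Mmp12 (0.000206), Mmp14 (0.0265), Mmp19 (0.0044), Timp1 (0.0272) and Timp2 (0.0439) for both together, Mmp12 for oxygen in lactate (0.0135), Mmp8 (0.0107), Mmp12 (0.000335) and Timp1 (0.0181) for oxygen over both media, and Mmp12 (0.0145) and Mmp19 (0.00951) for lactate over both oxygen levels. In these comparisons, in the order given, that fit called 2116, 261, 2211 and 256 of 15088 genes. DESeq2 called Mmp8, Mmp12, Mmp13, Mmp14 and Mmp19 for both together, beside 1450 of 14616 genes. For oxygen over both media it called Mmp13 and Mmp8 (0.043 for Mmp8), beside 859 genes. Mmp13 with only the groups compared missed the threshold for both together (adjusted p = 0.199), as did Fosl2 (0.295), Plau (0.293) and Ets2 (0.134).

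These differences changed sign. The Mmp13 interaction was 0.10 with RLE factors and in DESeq2, and -0.94 to 0.63 with 1 library left out. With 1 library left out, oxygen in NaCl ran from -0.35 to 0.18 for Timp2. Oxygen in lactate ran from -1.01 to 0.39 for Mmp9, -0.068 to 0.34 for Mmp19 and -0.30 to 0.38 for Timp2. Lactate in normoxia ran from -0.015 to 0.43 for Mmp8, -0.077 to 0.38 for Timp3 and -1.75 to 0.27 for Timp1. Lactate in hypoxia ran from -1.33 to 0.070 for Mmp9, -0.11 to 1.46 for Mmp13, -0.87 to 0.51 for Timp1 and -0.63 to 0.050 for Timp2. Lactate over both oxygen levels ran from -1.03 to 0.12 for Timp1. Upper-quartile factors gave -0.073 for Timp2 in oxygen in lactate. Without both outlying libraries the values were 0.18 (Timp2, oxygen in NaCl), 0.39 (Mmp9) and -0.30 (Timp2) for oxygen in lactate, 0.27 (Timp1, lactate in normoxia), 0.063 (Mmp9), -0.12 (Mmp13) and 0.42 (Timp1) for lactate in hypoxia, and for Timp1 0.084 with both together and 0.34 for lactate over both oxygen levels. With the replicate block and without hypoxia-lactate 3 they were 0.13 (Mmp9) and -0.23 (Timp2) for oxygen in lactate and 0.040 (Timp1) for lactate in hypoxia.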

Other observations

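Spp1 (osteopontin), a secreted matrix protein that metalloproteinases cut, was 2.40 ± 0.65 higher on the log2 scale with low oxygen and lactate together (edgeR adjusted p = 0.0796). Without hypoxia-lactate 3 it was 2.77 higher (0.0172), in a fit that called 6.86% of all genes in this comparison. Adam19 was -1.38 ± 0.38 in the same comparison (0.0818), and fell by 1.57 (0.0225) without that library. Both were chosen after their values were seen.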
